A study of Homo sapiens with 10 samples.

Results

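The integrated stress response and the unfolded protein response were followed through 34 listed genes in K562, a human chronic myeloid leukemia cell line, by SLAM-seq. The 34 genes were taken from a list of named members out of 59204 human gene rows, and all 34 were found. They comprise 6 integrated stress response factors (ATF4, ATF3, DDIT3, CEBPB, CEBPG and TRIB3) and 4 stress effectors (DDIT4, CHAC1, SESN2 and PPP1R15B). A further 5 belong to amino acid and one-carbon synthesis (ASNS, PSAT1, PHGDH, SHMT2 and MTHFD2) and 3 to amino acid transport (SLC7A11, SLC7A5 and SLC3A2). There are 3 unfolded protein response sensors and factors (ERN1, XBP1 and ATF6) and 3 genes of endoplasmic reticulum degradation (HERPUD1, SEL1L and EDEM1). The last 10 encode chaperones and folding enzymes of the endoplasmic reticulum (HSPA5, HSP90B1, DNAJB9, DNAJC3, PDIA4, PDIA6, CALR, CRELD2, SDF2L1 and MANF).

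Cells of the same line received 1 of 4 inhibitors of transcription or the solvent for 2 hours, and 4-thiouridine at 100 µM was present in all groups for the last 1 hour. The groups were actinomycin D at 1 µg/mL, which binds DNA and blocks elongation, AZ-5576 at 1 µM, an inhibitor of the pause release kinase CDK9, JQ1 at 1 µM, which displaces BET bromodomain proteins from chromatin, A-485 at 1 µM, an inhibitor of the acetyltransferases CBP and p300, and DMSO. Each group held 2 libraries, and no genetic change separated the groups. 4-thiouridine is built into new RNA and appears as T-to-C changes in reads, so that labelled counts report RNA made in the label hour and total counts report the whole mRNA pool.

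Each library held between 14916671 and 17918971 total human counts, and Drosophila spike-in counts made up 10.0 to 11.7% of each library. Labelled human counts were 1410 and 1614 in the actinomycin D libraries and 53503 and 62513 in the AZ-5576 libraries. The JQ1 libraries had 342847 and 322771, the A-485 libraries 411716 and 447455, and the DMSO libraries 448401 and 434411. Levels are given below as spike-scaled counts, that is counts per 1000000 spike-in counts of the same library. Because purified RNA received the spike-in, a level relates to the RNA used rather than to cell number, and fewer cells of a type and less RNA per cell cannot be told apart. All 8 markers of the line were present in every library, with GATA1 at 2397 to 3169 total counts and HBG1, a fetal globin, at 26080 to 33364. Among markers of other lineages MS4A1 and KRT5 had 0 counts in all libraries and CD3E had 1 to 9.

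In the integrated stress response, several kinases phosphorylate the initiation factor eIF2, general translation falls, and the mRNA of the transcription factor ATF4 is translated instead. ATF4 pairs with C/EBP proteins such as CEBPB, CEBPG and DDIT3 (also called CHOP) and switches on genes of amino acid synthesis and transport, together with feedback genes that restore translation. In the unfolded protein response, the sensors IRE1 (encoded by ERN1), ATF6 and PERK lie in the membrane of the endoplasmic reticulum. Active IRE1 leads to the spliced form of XBP1, and XBP1 and ATF6 induce chaperones such as HSPA5 (BiP) and the machinery that removes misfolded proteins. Counts from the 3′ end of mRNA report neither the splicing of XBP1 nor the translation of ATF4.

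Promoter sequences near the members' starts were searched for exact matches to response elements. Of the 34 members, 32 had an entry among RefSeq promoter windows of the build GRCh38.p14, which run from 250 bases before to 50 bases after each start. The windows were searched on both strands for 3 motifs. The core of the C/EBP-ATF response element, TGATGNAA, bound by ATF4 and its partners, stood in the windows of 7 of 32 members (ATF3, CEBPG, CHAC1, PPP1R15B, ASNS, SLC3A2 and HERPUD1) and of 4.46% of all 27305 genes. The endoplasmic reticulum stress element, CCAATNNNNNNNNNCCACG, bound by ATF6 and XBP1 with NF-Y, stood in 6 of 32 (XBP1, HSPA5, HSP90B1, PDIA6, CALR and CRELD2) and in 0.0916% of all genes. The shorter ERSE-II, which is ATTGG, any 1 base and CCACG, stood in SDF2L1 and HERPUD1 and in 0.0696% of all genes. ERSE and ERSE-II both join a CCAAT box, ATTGG on the other strand, to CCACG at different spacing, and no match of 1 motif overlapped a match of another in the members. Of the sequences below, HSPA5, CALR, XBP1 and SDF2L1 are shown because their labelled RNA moved in opposite directions with JQ1, HERPUD1 because it holds an element of each response, and ASNS as an amino acid response gene. Capitals mark the motif matches, and each sequence reads 5′ to 3′ on the strand of the gene. A match describes the letters and is not evidence of binding in these cells. The members were listed as genes of these responses, so their shares beside those of all genes are a description and were not tested. Variants of the motifs and sites outside the windows were not searched, so a member without a match may still hold an element.
HSPA5, chr9:125241374-125241433, minus strand: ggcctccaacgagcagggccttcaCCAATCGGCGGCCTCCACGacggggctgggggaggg
CALR, chr19:12938369-12938418, plus strand: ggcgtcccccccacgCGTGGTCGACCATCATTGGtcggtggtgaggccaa
XBP1, chr22:28800598-28800645, minus strand: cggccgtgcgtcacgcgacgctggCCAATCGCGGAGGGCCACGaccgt
SDF2L1, chr22:21642102-21642141, plus strand: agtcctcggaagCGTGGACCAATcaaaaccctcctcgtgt
HERPUD1, chr16:56931952-56932051, plus strand: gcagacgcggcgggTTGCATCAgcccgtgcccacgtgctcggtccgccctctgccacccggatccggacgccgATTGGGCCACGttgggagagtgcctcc
ASNS, chr7:97872457-97872486, minus strand: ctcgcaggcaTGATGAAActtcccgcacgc

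Members differed widely in how much of their mRNA was new in solvent-treated cells. In DMSO, DNAJB9, a cofactor of BiP, had 131 labelled of 208 total counts in both libraries together, a labelled share of 63.0% (95% Wilson interval 56.2 to 69.3%). CHAC1, which degrades glutathione, had 15 of 23 counts labelled, or 65.2% (44.9 to 81.2%). Shares of 26.3% for DDIT4, an inhibitor of mTORC1 signalling, 20.6% for PPP1R15B, a subunit of the phosphatase that dephosphorylates eIF2, and 20.1% for DDIT3 followed. ATF4 stood at 11.2% and XBP1 at 11.3%. Abundant chaperones and enzymes lay at the other end, with HSPA5 at 2.56%, SDF2L1, a partner of BiP, at 1.43% and ASNS, asparagine synthetase, at 0.931%. The lowest was PHGDH, the first enzyme of serine synthesis, at 0.556%. The median over the 34 members was 6.29%, against 3.92% over 14560 genes, of which 35.3% had a share at or above the members' median. A labelled share also depends on how many uridines lie in the sequenced window, which was not measured. DNAJB9 and DDIT3 overlap genes on the opposite strand, THAP5 with 4334 and MARS with 19178 total counts over all libraries, and the sources do not state that counting used strand, so reads of the overlapping genes cannot be told apart. The same holds for HSP90B1 with C12orf73 at 3656 counts, MTHFD2 with AC006030.1 at 3071, CRELD2 with ALG12 at 3302 and SHMT2 with NDUFA4L2 at 326.

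Actinomycin D against DMSO asked what remained when elongation was blocked. New RNA of the stress response genes was at or next to 0. Over all 34 members the 2 libraries held 2 and 1 labelled counts, against 2283 and 2223 in DMSO. ATF4 (ENSG00000128272, chr22:39519695-39522685) had 0 and 0 labelled counts with actinomycin D and 489 and 543 in DMSO, at least 388-fold lower by a limit of 3 counts over the group. By the same limit SLC3A2, the heavy chain shared by several amino acid transporters, was at least 218-fold lower, HSPA5 at least 152-fold, CALR, a calcium-binding chaperone, at least 139.9-fold and SDF2L1 at least 116-fold. These 4 genes had 0 and 0 labelled counts with actinomycin D, and in DMSO SLC3A2 had 339 and 241, HSPA5 223 and 180, CALR 186 and 186 and SDF2L1 142 and 166. A further 6 were also at 0 and 0 with actinomycin D, against 80 and 83 in DMSO for XBP1, 88 and 63 for DDIT3, 68 and 63 for DNAJB9, 53 and 66 for CEBPB, 48 and 67 for HSP90B1 and 38 and 43 for DDIT4. XBP1 was at least 61.3-fold lower, DDIT3 at least 56.8-fold, DNAJB9 at least 49.3-fold, CEBPB at least 44.8-fold, HSP90B1 at least 43.3-fold and DDIT4 at least 30.5-fold. The 3 remaining labelled counts belonged to MTHFD2, a mitochondrial one-carbon enzyme, at 2 and 0 with actinomycin D, against 85 and 104 in DMSO, and to HERPUD1, at 0 and 1 with actinomycin D and 26 and 25 in DMSO. MTHFD2 was 107-fold lower (interval 29.1 to 887) and HERPUD1 57.6-fold lower (interval 9.88 to 2317), where intervals cover counting error only. All 30 members with enough counts to test were lower at an adjusted p under 0.05, and 0 were higher (0 at an unadjusted p under 0.05 and 0 with DESeq2), where 99.2% of 7996 genes tested were lower (edgeR quasi-likelihood test, Benjamini-Hochberg over all genes, n = 2 libraries each). On the TMM scale, which assumes that most genes keep their level, 5 members were lower and 0 higher. On that scale 8.89% of all genes were lower and 0.425% higher. With groups at 0 set to the limit, the median was 3.46% of DMSO for members and 5.11% for all genes. As 28 of the 30 members and 7419 of the 7996 genes were at 0, these are upper limits set by the DMSO counts. They do not compare members with other genes. CHAC1, PHGDH, CRELD2 and EDEM1 had too few labelled counts to be tested in any comparison.

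**Figure D1:**
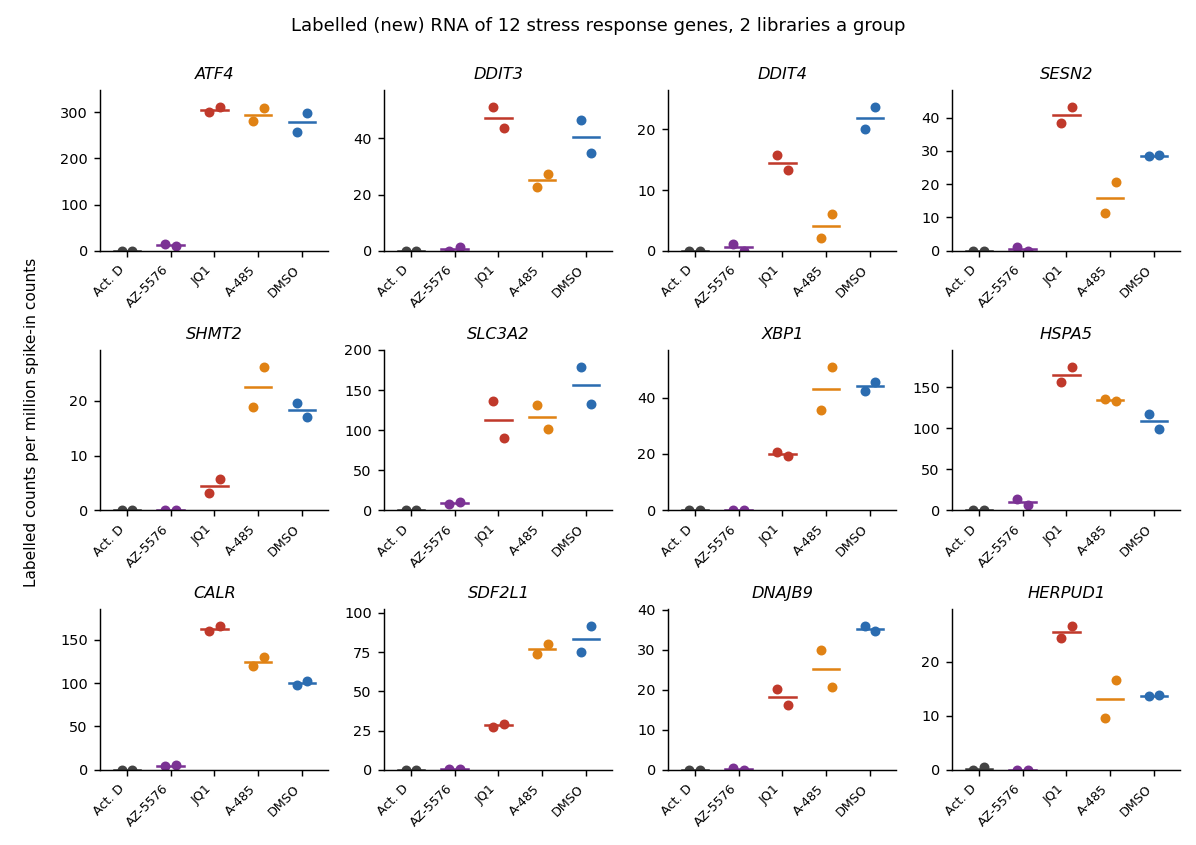
Labelled counts per 1000000 spike-in counts (y axis, from 0, a scale for each gene) of 12 stress response genes in each of the 5 groups (x axis). Points are the 2 libraries of a group and bars their mean. Actinomycin D and AZ-5576 libraries lie far below DMSO for all 12 genes. With JQ1, XBP1, SHMT2 and SDF2L1 lie below DMSO and HSPA5 and CALR above it. With A-485, DDIT4 lies below DMSO.

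In the mRNA pool, where total counts were compared, actinomycin D lowered 14 members, 13 of them outside the chaperone group. Of 34 members, 14 fell and 0 rose (0 at an unadjusted p under 0.05 and 0 with DESeq2), or 41.2%, where 19.7% of 14572 genes were lower and 0.336% higher. With TMM scaling 8 were lower and 3 higher, where 7.91% of all genes were lower and 5.43% higher. The 3 were PHGDH (0.50, adjusted p = 0.00825), SHMT2 (0.28, 0.0385) and CALR (0.22, 0.0213). Falls took in 4 of 6 stress response factors, 3 of 4 stress effectors, 2 of 3 sensors, 1 of 3 transport genes, 2 of 5 synthesis genes, 1 of 3 degradation genes and 1 of 10 chaperones, which was DNAJB9. The median change was -0.41 on the log2 scale for members and -0.27 for all genes.

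DNAJB9 had 8.94 and 7.81 spike-scaled total counts with actinomycin D, against 57.0 and 55.0 in DMSO (log2 fold change -2.73, SE 0.37, adjusted p = 6.05e-07). DDIT4 (ENSG00000168209, chr10:72273920-72276036) had 24.3 and 19.8 with actinomycin D and 74.4 and 91.9 in DMSO (log2 fold change -1.91, SE 0.28, adjusted p = 1.58e-06). DDIT3, a factor linked to cell death under long stress, had 54.1 and 74.9 with actinomycin D and 216 and 188 in DMSO (log2 fold change -1.64, SE 0.18, adjusted p = 5.74e-09). Both actinomycin D libraries lay below both DMSO libraries for each of the 3 genes.

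SLC3A2 had 411 and 414 spike-scaled total counts with actinomycin D and 903 and 783 in DMSO, and PPP1R15B had 65.1 and 60.6 with actinomycin D and 119 and 146 in DMSO. CEBPB had 193 and 181 with actinomycin D and 330.3 and 444 in DMSO, CEBPG 109.8 and 104 with actinomycin D and 205 and 199 in DMSO, and SESN2, a leucine sensor that restrains mTORC1, 158 and 219.6 with actinomycin D and 339.8 and 348 in DMSO. These 5 fell by 1.03 (SE 0.12), 1.08 (SE 0.20), 1.05 (SE 0.15), 0.92 (SE 0.17) and 0.86 (SE 0.14) on the log2 scale, and again no library of a group overlapped the other. The calls of these 5 genes and of DNAJB9, DDIT4 and DDIT3 were kept under every alternative run.

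ATF4 itself fell to 1576 and 2019.8 spike-scaled total counts with actinomycin D, against 2218 and 2773 in DMSO (log2 fold change -0.47, SE 0.12, adjusted p = 0.00645). HERPUD1, a scaffold of the degradation machinery, had 52.1 and 58.3 with actinomycin D and 81.8 and 100.1 in DMSO, XBP1 250.3 and 292 with actinomycin D and 371 and 407 in DMSO, and ERN1, the gene of the sensor IRE1, 47.7 and 37.2 with actinomycin D and 64.4 and 80.3 in DMSO, falls of 0.72 (SE 0.21), 0.52 (SE 0.13) and 0.77 (SE 0.25). MTHFD2 fell by 0.42 (SE 0.12) and PSAT1, a serine synthesis enzyme, by 0.35 (SE 0.13). These 6 calls were less stable. Adjusted p ran over the alternatives from 5.18e-06 to 0.221 for ATF4, 0.00715 to 0.164 for HERPUD1, 0.00152 to 0.154 for XBP1, 0.0216 to 0.281 for ERN1, 0.000675 to 0.281 for MTHFD2 and 0.0190 to 0.613 for PSAT1. All 6 were lost on the TMM scale and without DMSO replicate 2 (-0.30 for ATF4, -0.56 for HERPUD1, -0.45 for XBP1, -0.60 for ERN1, -0.27 for MTHFD2 and -0.23 for PSAT1). ATF4, XBP1 and HERPUD1 were also lost without actinomycin D replicate 1 (adjusted p = 0.171, 0.0927 and 0.0909), ERN1 and MTHFD2 without replicate 2 (0.202 and 0.0767), and PSAT1 without either (0.144 and 0.129), with no count filter (0.0678) and with only the 2 groups compared (0.0776). HSPA5 had 3338 and 3757 with actinomycin D and 3977 and 4512 in DMSO and did not pass the test (log2 fold change -0.26, SE 0.10, adjusted p = 0.0649), though it did without DMSO replicate 1 (-0.35, adjusted p = 0.0388).

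**Figure D2:**
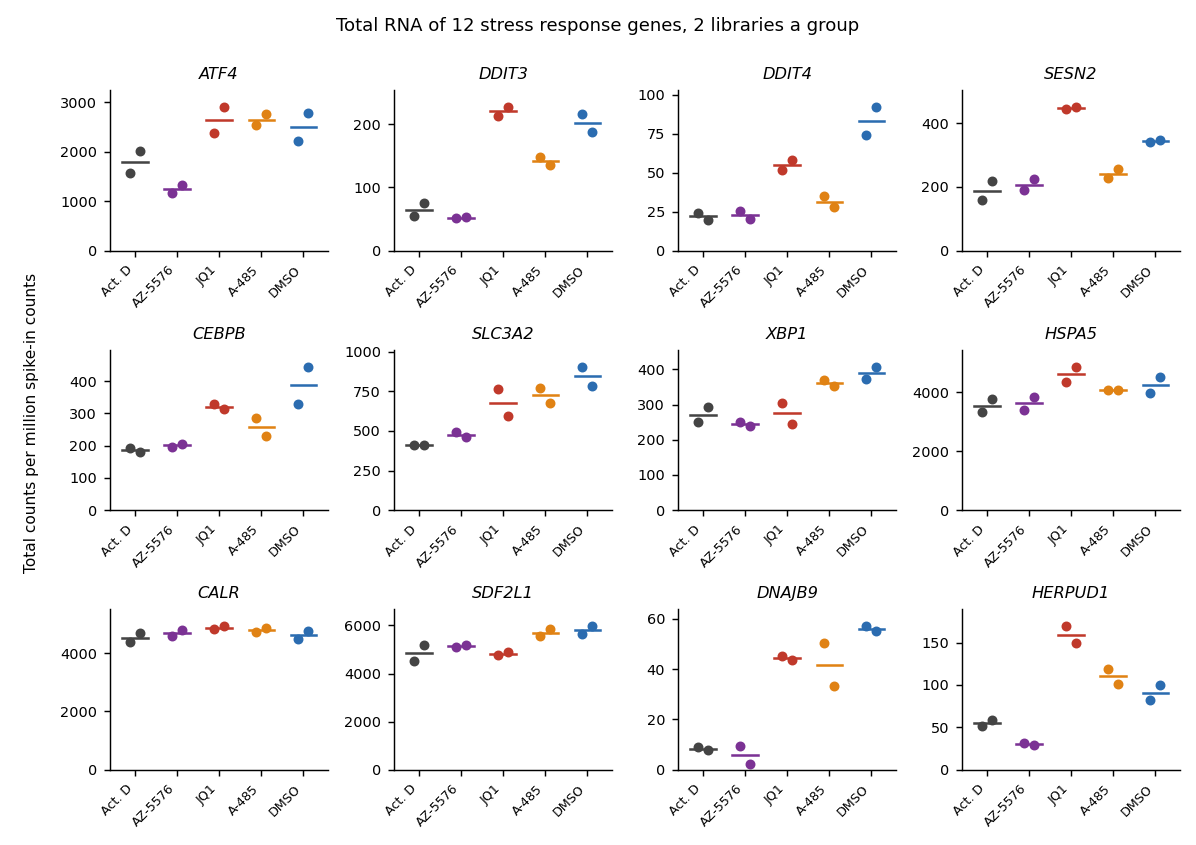
Total counts per 1000000 spike-in counts (y axis, from 0, a scale for each gene) of 12 stress response genes in each of the 5 groups (x axis). Points are the 2 libraries of a group and bars their mean. DNAJB9, DDIT3 and DDIT4 lie far below DMSO with actinomycin D and AZ-5576, DDIT4 also with A-485, and CALR lies between 4389 and 4913 in all libraries.

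AZ-5576 against DMSO asked how far the same genes depended on CDK9. Labelled RNA fell for all 30 members tested and rose for 0 (0 at an unadjusted p under 0.05 and 0 with DESeq2), where 94.7% of 7996 genes were lower and 0.2% higher, and 15 of the 30 had 0 labelled counts in both libraries. With TMM scaling 9 members were lower and 1 higher, where 26.1% of all genes were lower and 6.07% higher. With groups at 0 set to the limit of 3 counts, the median was 6.21% of DMSO for members and 6.82% for all genes. As 3730 of the 7996 genes were also at 0, both medians depend in part on that limit and on the DMSO counts. The 2 libraries held 104 and 96 labelled counts over all members, against 2283 and 2223 in DMSO.

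Labelled counts were left on several strongly labelled genes. ATF4 had 25 and 20 labelled counts with AZ-5576, against 489 and 543 in DMSO (log2 fold change -4.58, SE 0.24, adjusted p = 1.42e-75). HSPA5 had 24 and 12 counts with AZ-5576 and 223 and 180 in DMSO (log2 fold change -3.53, SE 0.29, adjusted p = 2e-32). SLC3A2 had 15 and 21 with AZ-5576 and 339 and 241 in DMSO, and CALR 7 and 11 with AZ-5576 and 186 and 186 in DMSO, falls of 4.07 (SE 0.29) and 4.42 (SE 0.33). Every AZ-5576 library lay below every DMSO library for these 4 genes. The TMM scale reversed HSPA5 to 0.035, and SLC3A2 (-0.51, adjusted p = 0.176) and CALR (-0.87, 0.0660) also lost their calls on it. The call of ATF4 was kept under every alternative run.

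Among members with 0 to 3 labelled counts over both AZ-5576 libraries, XBP1 had 0 and 0 labelled counts with AZ-5576 and 80 and 83 in DMSO, at least 56.9-fold lower. Also at 0 and 0 with AZ-5576 were PPP1R15B, against 42 and 59 in DMSO, SHMT2, against 37 and 31, CEBPG, against 28 and 29, HERPUD1, against 26 and 25, and PDIA4, against 20 and 24. PPP1R15B was at least 35.2-fold lower, SHMT2, a mitochondrial serine enzyme, at least 23.7-fold, CEBPG at least 19.9-fold, HERPUD1 at least 17.8-fold and PDIA4, a disulfide isomerase, at least 15.4-fold. SDF2L1, at 1 and 1 with AZ-5576 and 142 and 166 in DMSO, was 161-fold lower (interval 44.3 to 1337). DNAJB9, at 1 and 0 with AZ-5576 and 68 and 63 in DMSO, was 137-fold lower (interval 24.2 to 5458). SESN2 had 2 and 0 with AZ-5576 and 54 and 52 in DMSO, DDIT3 0 and 3 with AZ-5576 and 88 and 63 in DMSO, and DDIT4 2 and 0 with AZ-5576 and 38 and 43 in DMSO. SESN2 was 55.5-fold lower (interval 15.0 to 464), DDIT3 52.7-fold lower (interval 17.7 to 258) and DDIT4 42.4-fold lower (interval 11.4 to 356).

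The smallest fall among the 30 was that of ATF6, a sensor cleaved in the Golgi to release a transcription factor. It had 6 and 11 labelled counts with AZ-5576 and 20 and 23 in DMSO (log2 fold change -1.40, SE 0.63, adjusted p = 0.0277). Over the alternatives its adjusted p ran from 0.00629 on the TMM scale, where it was higher by 2.14, to 0.123 without AZ-5576 replicate 1. The call was also lost without DMSO replicate 1 (-1.53, adjusted p = 0.0507), without DMSO replicate 2 (-1.27, adjusted p = 0.116) and with no count filter. HSP90B1, the chaperone GRP94, fell by 2.90 (SE 0.46), against 0.64 higher on the TMM scale.

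In the mRNA pool AZ-5576 lowered 14 of 34 members and raised 0 (0 at an unadjusted p under 0.05 and 0 with DESeq2), or 41.2%, where 12.9% of 14572 genes were lower and 0.782% higher. The median change was -0.29 for members and -0.15 for all genes. DNAJB9 had 9.30 and 2.43 spike-scaled total counts with AZ-5576, against 57.0 and 55.0 in DMSO (log2 fold change -3.28, SE 0.40, adjusted p = 8.26e-08). DDIT3 had 50.9 and 52.4 with AZ-5576 and 216 and 188 in DMSO (log2 fold change -1.97, SE 0.19, adjusted p = 2.27e-10). DDIT4 had 25.2 and 20.4 with AZ-5576 and 74.4 and 91.9 in DMSO (log2 fold change -1.87, SE 0.28, adjusted p = 3.11e-06). The AZ-5576 libraries lay below both DMSO libraries, and these 3 genes had the largest falls among the called members, as they did with actinomycin D.

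The eIF2 branch followed. PPP1R15B had 41.0 and 40.3 spike-scaled total counts with AZ-5576 and 119 and 146 in DMSO (log2 fold change -1.70, SE 0.21, adjusted p = 6.31e-08). ATF4 had 1174 and 1335 with AZ-5576 and 2218 and 2773 in DMSO (log2 fold change -0.99, SE 0.12, adjusted p = 9.2e-07). CEBPB had 197 and 206 with AZ-5576 and 330.3 and 444 in DMSO and SLC3A2 495 and 458 with AZ-5576 and 903 and 783 in DMSO, falls of 0.94 (SE 0.15) and 0.82 (SE 0.12), and SESN2 fell by 0.73 (SE 0.14). In the unfolded protein branch, HERPUD1 had 31.2 and 29.6 with AZ-5576 and 81.8 and 100.1 in DMSO (log2 fold change -1.58, SE 0.22, adjusted p = 1.14e-06), and XBP1 had 249 and 239.8 with AZ-5576 and 371 and 407 in DMSO, a fall of 0.67 (SE 0.13). No AZ-5576 library reached a DMSO library for any of these 7 genes. Their calls and those of DNAJB9, DDIT3 and DDIT4 were kept under every alternative run. HSPA5 had 3398 and 3850.0 with AZ-5576 and 3977 and 4512 in DMSO and did not pass the test (log2 fold change -0.23, SE 0.10, adjusted p = 0.148).

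Another 4 members fell with AZ-5576 and depended on single libraries. ATF3, a stress-induced factor, had 10 and 19 total counts with AZ-5576 and 57 and 33 in DMSO (log2 fold change -1.70, SE 0.42, adjusted p = 0.00388). Its adjusted p ran from 0.00272 to 0.104 over the alternatives, and the call was lost without AZ-5576 replicate 1 (-1.38, adjusted p = 0.0901) and without DMSO replicate 1 (-1.28, 0.104). ERN1 fell by 0.93 (SE 0.26), with adjusted p 0.00325 to 0.273 over the alternatives, and MTHFD2 by 0.38 (SE 0.12), with 0.00209 to 0.430. Both were lost without AZ-5576 replicate 1 (-0.60 for ERN1 and -0.23 for MTHFD2) and without DMSO replicate 2 (-0.76 and -0.23), and MTHFD2 on the TMM scale. CEBPG fell by 0.67 (SE 0.17), with 0.00130 to 0.112, and was lost without AZ-5576 replicate 2 (-0.52).

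The falls in the pool stood beside the labelled share in DMSO. The 10 members with the highest shares, 11.2 to 65.2%, had a median change of -1.05 in the actinomycin D comparison, with 8 called lower, and of -1.70 in the AZ-5576 comparison, with 9. The next 10, with shares of 4.33 to 8.96%, had medians of -0.49 and -0.39, with 5 called in each comparison. The 14 with the lowest shares, 0.556 to 4.15%, had medians of -0.16 and -0.04, with 1 and 0 called. Among these 14, CALR had 4389 and 4679 spike-scaled total counts with actinomycin D and 4585 and 4778 with AZ-5576, against 4493 and 4756 in DMSO. The share and both changes use the same DMSO total counts, so the order is a description.

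**Figure D3:**
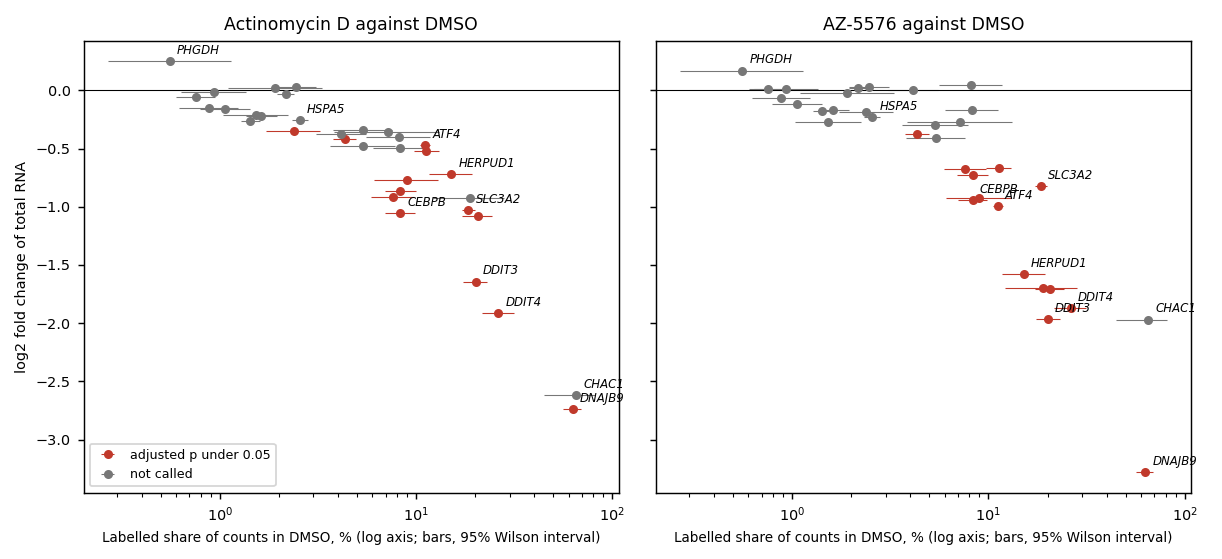
Change of total RNA (y axis, log2 fold change) against the labelled share of counts in DMSO (x axis, %, log scale) for the 34 members, with actinomycin D against DMSO on the left and AZ-5576 against DMSO on the right. Horizontal bars are 95% Wilson intervals of the share over both DMSO libraries and red points passed an adjusted p under 0.05. DNAJB9, with a share of 63.0%, lies lowest of the called genes in both panels at -2.73 and -3.28, and the 14 members with shares up to 4.15% have medians of -0.16 and -0.04.

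AZ-5576 was also set directly against actinomycin D in total RNA. ATF4 was lower with AZ-5576, at 1174 and 1335 spike-scaled total counts, against 1576 and 2019.8 with actinomycin D (log2 fold change -0.52, SE 0.12, adjusted p = 0.0167), and HERPUD1 was lower at 31.2 and 29.6 with AZ-5576, against 52.1 and 58.3 with actinomycin D (log2 fold change -0.86, SE 0.23, adjusted p = 0.0272). For both genes the 2 AZ-5576 libraries lay below the 2 actinomycin D libraries. These were 2 lower and 0 higher of 34 (2 higher at an unadjusted p under 0.05 and 0 with DESeq2), where 0.371% of 14572 genes were lower and 2% higher. PPP1R15B did not pass at -0.63 (SE 0.21, adjusted p = 0.141), nor did DDIT4 with 25.2 and 20.4 with AZ-5576 and 24.3 and 19.8 with actinomycin D, XBP1 with 249 and 239.8 with AZ-5576 and 250.3 and 292 with actinomycin D and HSPA5 with 3398 and 3850.0 with AZ-5576 and 3338 and 3757 with actinomycin D. ATF4 had adjusted p 9.61e-06 to 0.369 over the alternatives and was lost without actinomycin D replicate 2 (-0.33) and without AZ-5576 replicate 1 (-0.43). HERPUD1 had 0.0128 to 0.224 and was lost with only the 2 groups compared (adjusted p = 0.0893) and without any 1 of the 4 libraries, where its log2 fold change ran from -0.94 to -0.78.

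JQ1 against DMSO asked how the same genes respond to BET displacement. New RNA of the chaperones HSPA5 and CALR rose, and that of SDF2L1, XBP1, SHMT2, SLC7A11 and CEBPG fell. Labelled RNA fell for 5 of 30 members, or 16.7%, and rose for 2, or 6.67%, where 28.6% of 7996 genes were lower and 1.26% higher. The difference in these shares was not tested. The median member stood at -0.25 on the log2 scale and the median gene at -0.85. On the TMM scale the median member was at 0.60 and the median gene at 0.01, with 0 members lower and 10 higher. On that scale 4.91% of all genes tested were lower and 6.03% higher. Members made up 0.803 and 0.771% of labelled counts with JQ1 and 0.509 and 0.512% in DMSO, a ratio that needs no scaling between libraries. Both JQ1 libraries lay above both DMSO libraries in this share. The members' summed spike-scaled labelled counts were 1244 and 1178 with JQ1 and 1204 and 1223 in DMSO, and the groups overlapped. Labelled counts of all human genes were 342847 and 322771 with JQ1 and 448401 and 434411 in DMSO. The higher share thus went with fewer labelled counts over all genes and not with a higher sum for members.

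The 2 genes that rose encode chaperones of the endoplasmic reticulum. HSPA5 (ENSG00000044574, chr9:125234853-125241330) had 156 and 175 spike-scaled labelled counts with JQ1, against 118 and 99.0 in DMSO (log2 fold change 0.61, SE 0.21, adjusted p = 0.0189). CALR (ENSG00000179218, chr19:12938578-12944489) had 160.4 and 165 with JQ1 and 98.1 and 102 in DMSO (log2 fold change 0.70, SE 0.22, adjusted p = 0.00716). The JQ1 libraries were above both DMSO libraries for both genes. Over the alternatives adjusted p ran from 2e-10 to 0.248 for HSPA5 and 3.77e-11 to 0.106 for CALR. Both calls were lost without DMSO replicate 1 (0.74 for HSPA5 and 0.67 for CALR) and without DMSO replicate 2 (0.49 and 0.73), and HSPA5 also without JQ1 replicate 2 (0.52) and with no count filter.

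SDF2L1 (ENSG00000128228, chr22:21642261-21644298), a chaperone subunit, went the other way. It had 27.1 and 29.3 spike-scaled labelled counts with JQ1 and 74.9 and 91.3 in DMSO (log2 fold change -1.56, SE 0.29, adjusted p = 1.95e-06), with the groups well apart. XBP1 (ENSG00000100219, chr22:28794555-28800597) had 20.8 and 19.4 with JQ1 and 42.2 and 45.7 in DMSO (log2 fold change -1.13, SE 0.36, adjusted p = 0.00920), with the 2 JQ1 libraries at less than each DMSO library. SHMT2 had 3.16 and 5.68 with JQ1 and 19.5 and 17.1 in DMSO (log2 fold change -2.04, SE 0.56, adjusted p = 0.00254). SLC7A11, the cystine transporter, had 1 and 1 labelled counts with JQ1 and 16 and 20 in DMSO, 21.0-fold lower (interval 5.40 to 179.8) by its counts (adjusted p = 0.00291). CEBPG, a dimer partner of ATF4, had 4.97 and 6.15 spike-scaled labelled counts with JQ1 and 14.8 and 16.0 in DMSO (log2 fold change -1.46, SE 0.59, adjusted p = 0.0477).

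All 5 falls were lost on the TMM scale, and SDF2L1 was kept under every other alternative (adjusted p 5.05e-08 to 0.108 over all of them). SHMT2 (adjusted p 0.00158 to 0.185) was lost without JQ1 replicate 1 (-1.68) and SLC7A11 (0.00176 to 0.0582) without DMSO replicate 2 (adjusted p = 0.0582). XBP1 (0.00377 to 0.732) was lost without JQ1 replicate 2 (-1.08), DMSO replicate 1 (-1.18) or DMSO replicate 2 (-1.07). CEBPG (0.0351 to 0.608) was lost without any 1 of the 4 libraries, where its value ran from -1.62 to -1.31. It was also lost with DESeq2 (adjusted p = 0.0625), with the replicate block (0.0625) and with no count filter (0.102), so that it failed under most alternatives.

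ATF4, DDIT4, SESN2, HERPUD1, MANF and DNAJB9 did not pass the test with JQ1 in labelled RNA. ATF4 had 301 and 311 spike-scaled labelled counts with JQ1 and 258 and 299 in DMSO (log2 fold change 0.14, SE 0.18, adjusted p = 0.570), and the JQ1 libraries lay just above the DMSO range. DDIT4 had 15.8 and 13.3 with JQ1 and 20.0 and 23.7 in DMSO (log2 fold change -0.58, SE 0.50, adjusted p = 0.376), below both DMSO libraries. SESN2 had 38.4 and 43.1 with JQ1 and 28.5 and 28.6 in DMSO (log2 fold change 0.51, SE 0.37, adjusted p = 0.288), above both. HERPUD1 had 24.4 and 26.5 with JQ1 and 13.7 and 13.8 in DMSO (log2 fold change 0.89, SE 0.47, adjusted p = 0.136) and MANF, a secreted stress protein, 19.9 and 15.1 with JQ1 and 6.86 and 6.60 in DMSO (log2 fold change 1.37, SE 0.60, adjusted p = 0.0688). DNAJB9 had 20.3 and 16.1 with JQ1 and 35.9 and 34.7 in DMSO (log2 fold change -0.95, SE 0.40, adjusted p = 0.0550). DNAJB9 passed with DESeq2 (adjusted p = 0.0435), with at least 30 counts (0.0382) and with only the 2 groups compared (0.0226), the setting in which MANF passed too (0.0297). With TMM scaling ATF4 (1.00, adjusted p = 6.65e-07), SESN2 (1.37, 0.00325), HERPUD1 (1.75, 0.00297) and MANF (2.22, 0.003) were higher with JQ1, as were DDIT3, MTHFD2, ERN1 and HSP90B1.

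In the mRNA pool JQ1 raised HERPUD1 alone among 34 members and lowered 3, where 0.837% of 14572 genes were higher and 7.35% lower. HERPUD1 (ENSG00000051108, chr16:56932048-56944863) had 169 and 150.0 spike-scaled total counts with JQ1 and 81.8 and 100.1 in DMSO (log2 fold change 0.81, SE 0.19, adjusted p = 0.00521), with all JQ1 libraries above DMSO. CEBPG had 108 and 135 with JQ1 and 205 and 199 in DMSO (log2 fold change -0.74, SE 0.16, adjusted p = 0.00286), XBP1 306 and 245 with JQ1 and 371 and 407 in DMSO (log2 fold change -0.50, SE 0.13, adjusted p = 0.0135), and PSAT1 306 and 326 with JQ1 and 386 and 454 in DMSO (log2 fold change -0.41, SE 0.13, adjusted p = 0.0341). The JQ1 libraries lay below the DMSO libraries for these 3 genes. On the TMM scale 0 were lower and 4 higher, where 1.98% of all genes were lower and 1.47% higher. The 4 were HERPUD1, HSPA5, SESN2 (0.58, adjusted p = 0.00768) and CALR (0.27, 0.0131). SESN2 was also higher with the replicate block (0.38, 0.0282). The median member was at -0.11 and the median gene at -0.19, and the members' median turned to 0.09 on the TMM scale.

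HERPUD1 was lost without DMSO replicate 1 (0.67, adjusted p 0.00115 to 0.0769 over the alternatives). With TMM scaling CEBPG, XBP1 and PSAT1 were lost (adjusted p = 0.0591, 0.222 and 0.345). CEBPG (0.00113 to 0.0591) was also lost without JQ1 replicate 1 (-0.58) and XBP1 (0.00317 to 0.222) without JQ1 replicate 2 (-0.35) or DMSO replicate 2 (-0.43). PSAT1 (0.0118 to 0.363) was lost without JQ1 replicate 1 (-0.37), JQ1 replicate 2 (-0.46) or DMSO replicate 2 (-0.29) and with only the 2 groups compared (-0.41). ATF4 had 2373 and 2898 spike-scaled total counts with JQ1 and 2218 and 2773 in DMSO, DDIT4 52.0 and 58.2 with JQ1 and 74.4 and 91.9 in DMSO, and HSPA5 4364 and 4860.3 with JQ1 and 3977 and 4512 in DMSO, and none of the 3 passed (adjusted p = 0.727, 0.138 and 0.486), but HSPA5 was higher with TMM scaling (0.32, adjusted p = 0.00768). ATF3 had 105 and 110 total counts with JQ1 and 57 and 33 in DMSO (log2 fold change 1.04, SE 0.35, adjusted p = 0.0588), above both DMSO libraries without passing, and it passed with only the 2 groups compared (adjusted p = 0.0191).

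**Figure D4:**
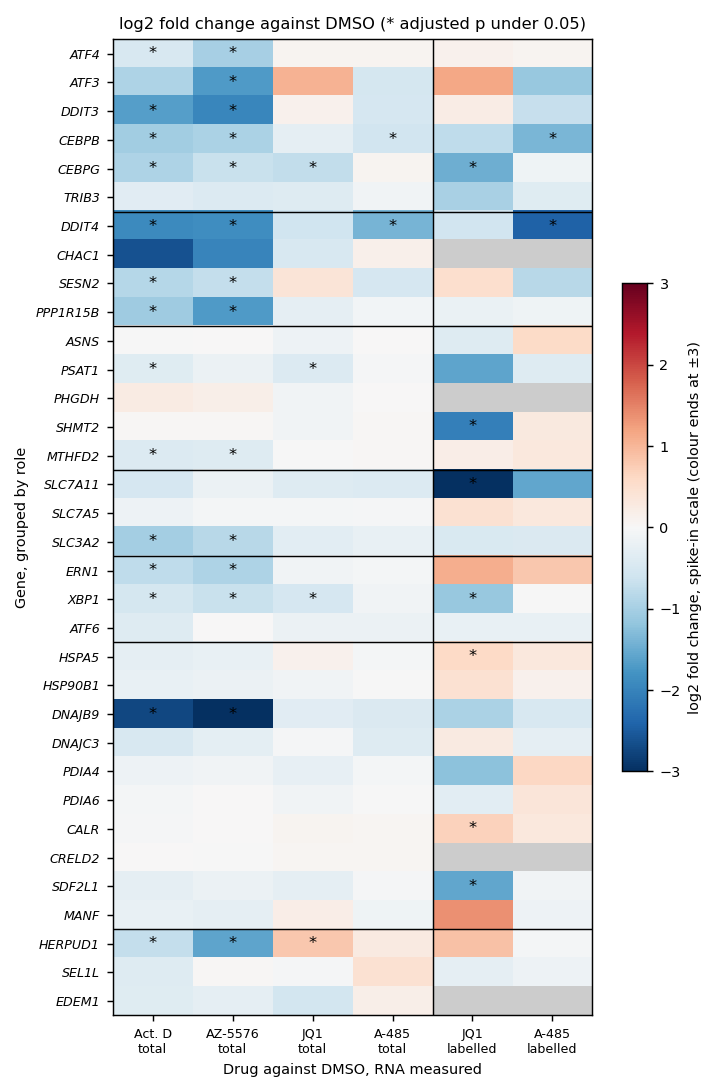
Log2 fold change against DMSO on the spike-in scale (colour, ending at ±3) of the 34 members (rows, grouped by role) in total RNA with the 4 drugs and in labelled RNA with JQ1 and A-485 (columns). Stars mark an adjusted p under 0.05 and grey cells had too few labelled counts to test. Stars crowd in the upper rows with actinomycin D and AZ-5576, 14 in each column, and number 4 and 2 in the columns of total RNA with JQ1 and A-485. On the TMM scale the stars of JQ1 turn to 4 higher in total and 10 higher in labelled RNA, where 1.47 and 6.03% of all genes were higher.

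A-485 against DMSO asked which members depended on CBP and p300, and DDIT4 led both readouts. Labelled RNA fell for 2 of 30 members, or 6.67%, and rose for 0 (0 at an unadjusted p under 0.05 and 0 with DESeq2), where 4.86% of 7996 genes were lower and 0.163% higher. In total RNA the same 2 genes, DDIT4 and CEBPB, fell and 0 of 34 rose (1 at an unadjusted p under 0.05 and 0 with DESeq2), where 1.2% of 14572 genes were lower and 0.0343% higher. The median member was at -0.13 in labelled and -0.05 in total RNA, the median gene at -0.09 and -0.04, and on the TMM scale the members' medians turned to 0.09 and 0.00. Members made up 0.545 and 0.538% of labelled counts with A-485 and 0.509 and 0.512% in DMSO. Their summed spike-scaled labelled counts were 1139 and 1214 with A-485 and 1204 and 1223 in DMSO.

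DDIT4 had 4 and 12 labelled counts with A-485 and 38 and 43 in DMSO, or 2.03 and 6.05 spike-scaled counts with A-485 and 20.0 and 23.7 in DMSO (log2 fold change -2.42, SE 0.59, adjusted p = 0.00152). In total RNA it had 35.0 and 27.7 spike-scaled counts with A-485 and 74.4 and 91.9 in DMSO (log2 fold change -1.40, SE 0.27, adjusted p = 0.00111). CEBPB had 13.2 and 11.6 spike-scaled labelled counts with A-485 and 28.0 and 36.3 in DMSO (log2 fold change -1.37, SE 0.44, adjusted p = 0.0418), and 287 and 229.8 in total RNA with A-485 and 330.3 and 444 in DMSO (log2 fold change -0.58, SE 0.14, adjusted p = 0.0224). The A-485 libraries were below both DMSO libraries in all 4 cases.

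In labelled RNA, DDIT4 had adjusted p 0.00108 to 0.210 over the alternatives and was lost without A-485 replicate 1 (-1.84) and without DMSO replicate 2 (-2.29). CEBPB was lost on the TMM scale, with no count filter and with the replicate block (-1.39, adjusted p = 0.0648). It was also lost without any 1 of the 4 libraries, at -1.55 to -1.17. In total RNA both were lost without A-485 replicate 2 (-1.25 for DDIT4 and -0.43 for CEBPB) and without DMSO replicate 2 (-1.24 and -0.35), with adjusted p 4.67e-06 to 0.104 for DDIT4 and 0.00166 to 0.788 for CEBPB over the alternatives.

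Other factors and chaperones did not pass with A-485. ATF4 had 281 and 309 spike-scaled labelled counts with A-485 and 258 and 299 in DMSO (log2 fold change 0.08, SE 0.18, adjusted p = 0.939), XBP1 35.5 and 50.9 with A-485 and 42.2 and 45.7 in DMSO (log2 fold change -0.02, SE 0.34, adjusted p = 0.992), and HSPA5 136 and 133 with A-485 and 118 and 99.0 in DMSO (log2 fold change 0.31, SE 0.21, adjusted p = 0.640). The A-485 and DMSO libraries of ATF4 and XBP1 overlapped, and those of HSPA5 did not. In total RNA, ATF4 had 2534 and 2756 with A-485 and 2218 and 2773 in DMSO, XBP1 371 and 354 with A-485 and 371 and 407 in DMSO, and HSPA5 4084 and 4068 with A-485 and 3977 and 4512 in DMSO. SESN2 had 228 and 255 with A-485 and 339.8 and 348 in DMSO (log2 fold change -0.51, SE 0.14, adjusted p = 0.0667), below both DMSO libraries, and passed with no count filter (adjusted p = 0.0435) and with only the 2 groups compared (0.0167). In the same readout DDIT3 had 148 and 136 with A-485 and 216 and 188 in DMSO (log2 fold change -0.51, SE 0.17, adjusted p = 0.200).

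A-485 was set against JQ1 to compare the 2 drugs that act on acetylated chromatin. New RNA of ATF3, DDIT3, DDIT4, SESN2 and MANF was lower with A-485 than with JQ1, and that of SDF2L1, SHMT2, XBP1 and PDIA4 was higher. In labelled RNA 5 of 30 members were lower, or 16.7%, and 4 higher, or 13.3%, where 3.14% of 7996 genes were lower and 24.8% higher. On the TMM scale 12 were lower and 2 higher, where 7.45% of all genes were lower and 6.34% higher. The median member was at 0.02 and the median gene at 0.72, and the members' median turned to -0.61 on the TMM scale. In total RNA 3 of 34 were lower and 1 higher, where 1.2% of 14572 genes were lower and 5.38% higher. With TMM scaling 8 members were lower and 1 higher in total RNA, where 1.91% of all genes were lower and 2.33% higher.

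Among the factors and effectors, SESN2 (ENSG00000130766, chr1:28259527-28282491) had 11.2 and 20.7 spike-scaled labelled counts with A-485, against 38.4 and 43.1 with JQ1 (log2 fold change -1.35, SE 0.39, adjusted p = 0.00420). DDIT4 had 2.03 and 6.05 with A-485 and 15.8 and 13.3 with JQ1 (log2 fold change -1.83, SE 0.60, adjusted p = 0.0122). DDIT3 (ENSG00000175197, chr12:57516588-57521737) had 22.8 and 27.2 with A-485 and 51.1 and 43.5 with JQ1 (log2 fold change -0.92, SE 0.34, adjusted p = 0.0293). ATF3 had 7 and 1 labelled counts with A-485 and 21 and 23 with JQ1 (log2 fold change -2.30, SE 0.87, adjusted p = 0.0341), and MANF had 11 and 13 with A-485 and 44 and 32 with JQ1 (log2 fold change -1.52, SE 0.61, adjusted p = 0.0454). No A-485 library reached a JQ1 library for any of the 5.

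Of the 4 that were higher, SDF2L1 had 73.6 and 80.1 spike-scaled labelled counts with A-485 and 27.1 and 29.3 with JQ1 (log2 fold change 1.44, SE 0.29, adjusted p = 1.26e-05). SHMT2 had 18.8 and 26.2 with A-485 and 3.16 and 5.68 with JQ1 (log2 fold change 2.34, SE 0.56, adjusted p = 0.000396). XBP1 had 35.5 and 50.9 with A-485 and 20.8 and 19.4 with JQ1 (log2 fold change 1.10, SE 0.35, adjusted p = 0.0112), and PDIA4 had 20.8 and 15.6 with A-485 and 8.13 and 1.89 with JQ1 (log2 fold change 1.84, SE 0.59, adjusted p = 0.0111). The A-485 libraries lay above the JQ1 libraries for these 4 genes. ATF4 had 281 and 309 with A-485 and 301 and 311 with JQ1, and its difference of -0.05 (SE 0.18, adjusted p = 0.851) did not pass, while HSPA5 had 136 and 133 with A-485 and 156 and 175 with JQ1 (log2 fold change -0.30, SE 0.21, adjusted p = 0.284). With TMM scaling both were lower with A-485 than with JQ1, ATF4 by 0.69 and HSPA5 by 0.93 on the log2 scale (adjusted p = 0.00141 and 0.000133).

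SDF2L1 and SHMT2 kept their calls under every alternative (adjusted p 4.61e-07 to 0.0407 and 0.000225 to 0.0322). SESN2 (9.74e-06 to 0.158) was lost without A-485 replicate 1 (-0.98), and DDIT4 (0.000715 to 0.218) without A-485 replicate 1 (-1.26) or JQ1 replicate 1 (-1.70). XBP1 (0.00571 to 0.440) was lost without A-485 replicate 2 (0.82), without JQ1 replicate 2 (1.05) and on the TMM scale, and PDIA4 (0.00402 to 0.222) without A-485 replicate 1 (1.62), without JQ1 replicate 2 (1.16) and on the TMM scale. ATF3 (0.00836 to 0.338) was lost without A-485 replicate 2 (-1.50), JQ1 replicate 1 (-2.39) or JQ1 replicate 2 (-2.19), with DESeq2 (-2.33) and with no count filter (-2.30), and rested on 1 A-485 count without A-485 replicate 1. DDIT3 and MANF were lost without any 1 of the 4 libraries, at -1.05 to -0.80 and -1.70 to -1.31. Both were also lost with no count filter (adjusted p = 0.0639 and 0.0991), and MANF with DESeq2 (0.0565) and with the replicate block (0.0668).

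In the mRNA pool SESN2, DDIT3 and ATF3 were lower with A-485 than with JQ1. SESN2 had 228 and 255 spike-scaled total counts with A-485, against 443 and 450.1 with JQ1 (log2 fold change -0.89, SE 0.14, adjusted p = 3.47e-05). DDIT3 had 148 and 136 with A-485 and 214 and 227 with JQ1 (log2 fold change -0.64, SE 0.17, adjusted p = 0.0145), and ATF3 14.2 and 19.1 with A-485 and 47.5 and 52.1 with JQ1 (log2 fold change -1.57, SE 0.36, adjusted p = 0.00418). CEBPG was higher, at 216 and 215 with A-485 and 108 and 135 with JQ1 (log2 fold change 0.83, SE 0.16, adjusted p = 0.000806). The groups did not overlap for any of these 4 genes. SESN2 and CEBPG kept their calls under every alternative. ATF3 (0.00202 to 0.112) was lost without A-485 replicate 1 (-1.37), and DDIT3 (0.00451 to 0.174) without A-485 replicate 1 (-0.70), A-485 replicate 2 (-0.58) or JQ1 replicate 2 (-0.59). ATF4 had 2534 and 2756 with A-485 and 2373 and 2898 with JQ1, DDIT4 35.0 and 27.7 with A-485 and 52.0 and 58.2 with JQ1, XBP1 371 and 354 with A-485 and 306 and 245 with JQ1 and HSPA5 4084 and 4068 with A-485 and 4364 and 4860.3 with JQ1, and none of the 4 passed (adjusted p = 0.989, 0.0617, 0.0667 and 0.341). With TMM scaling DDIT4 (-0.96, adjusted p = 0.0315) and HSPA5 (-0.32, 0.00677) were lower with A-485 than with JQ1, and XBP1 was higher on the spike-in scale without JQ1 replicate 1 (0.56, 0.0207).

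**Figure D5:**
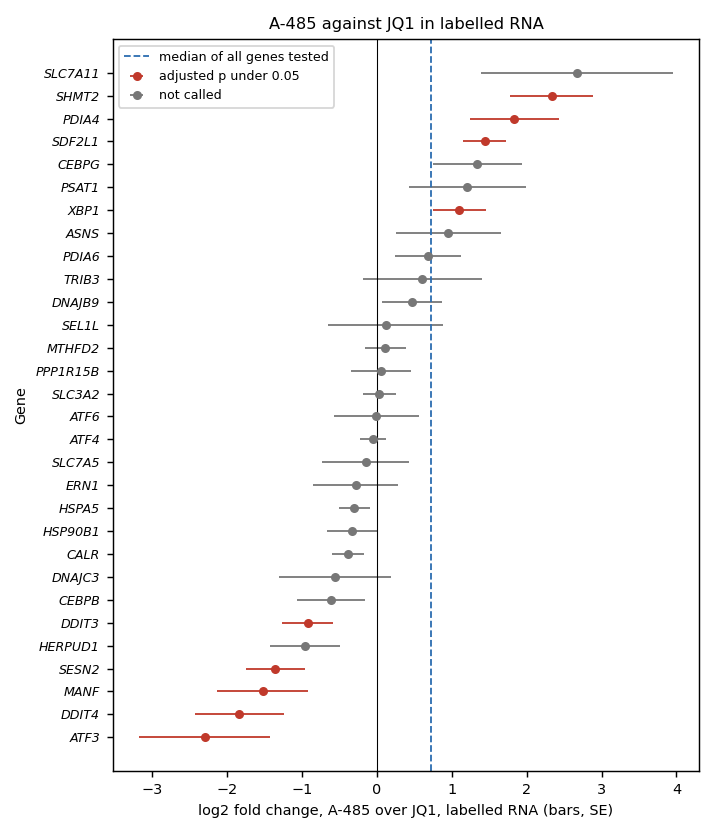
Log2 fold change of A-485 over JQ1 in labelled RNA on the spike-in scale (x axis, bars are the SE) for the 30 members tested (rows, in order of the value). Red points passed an adjusted p under 0.05 and the dashed line is the median of all genes tested, 0.72. ATF3, DDIT4, MANF, SESN2 and DDIT3 lie at the low end, SHMT2, PDIA4, SDF2L1 and XBP1 at the high end, and ATF4 at -0.05. On the TMM scale 12 were lower and 2 higher, where 7.45% of all genes were lower and 6.34% higher.

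With edgeR on the spike-in scale and no library left out, the remaining members did not pass in total RNA with any drug. This holds at a minimum of 10 counts and without the replicate block. With the block, SLC7A11 (-0.5, adjusted p = 0.0390), ATF6 (-0.38, 0.0359), HSP90B1 (-0.23, 0.0322) and SDF2L1 (-0.26, 0.00237) were lower with actinomycin D. SDF2L1 was also lower with JQ1 (-0.26, 0.00427). At a minimum of 30 counts SDF2L1 passed with actinomycin D (-0.26, 0.0455). SDF2L1 passed with DESeq2 for actinomycin D (-0.26, adjusted p = 0.0246) and JQ1 (-0.27, 0.0342). With a library left out, TRIB3 passed with AZ-5576 without AZ-5576 replicate 2 (-0.79). With actinomycin D, ATF6 (-0.56) and DNAJC3 (-0.67) passed without DMSO replicate 1, and SDF2L1 (-0.36) without actinomycin D replicate 2. TRIB3, a pseudokinase that feeds back on ATF4, had 136 and 144 spike-scaled total counts with A-485, 124 and 105 with JQ1, 87.0 and 139 with AZ-5576 and 108 and 129 with actinomycin D, against 145 and 156 in DMSO. ASNS had 767 and 748 with A-485, 767 and 577 with JQ1, 794 and 721 with AZ-5576 and 744 and 743 with actinomycin D, against 772 and 731 in DMSO. With JQ1, total RNA differed from DMSO by -0.07 for SLC7A5, a large neutral amino acid transporter, -0.03 for SEL1L, the adaptor of a degradation ligase, -0.03 for DNAJC3, an inhibitor of eIF2 kinases, -0.10 for PDIA6, a disulfide isomerase, and 0.06 for CRELD2, a secreted stress protein. The same differences with A-485 were -0.04, 0.46, -0.40, -0.01 and 0.05, and none of the 10 values passed.

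Among the members with too few labelled counts to test, CHAC1 had 0 and 1 labelled counts with A-485 and 0 and 2 with JQ1, against 11 and 4 in DMSO. It was 16.0-fold lower (interval 2.46 to 673) with A-485 and 8.74-fold lower (interval 2.03 to 78.7) with JQ1. EDEM1, a lectin of endoplasmic reticulum degradation, had 5 and 0 with A-485 and 0 and 0 with JQ1, against 5 and 4 in DMSO, at least 3.49-fold lower with JQ1. PHGDH had 5 and 1 with A-485, 1 and 6 with JQ1 and 2 and 5 in DMSO, and CRELD2 7 and 19 with A-485, 7 and 4 with JQ1 and 5 and 7 in DMSO. The libraries of PHGDH overlapped, and on the spike-in scale those of CRELD2 overlapped between A-485 and DMSO and between JQ1 and DMSO.

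Summed by role, the 4 stress effectors had 31.5 and 58.5 spike-scaled labelled counts with A-485 and 76.4 and 82.8 with JQ1, against 76.5 and 86.9 in DMSO. In total RNA they had 384 and 426 with A-485 and 611 and 620.0 with JQ1, against 542 and 589 in DMSO. Both A-485 libraries lay below both DMSO libraries in each readout, and DDIT4 and SESN2 make up part of this sum. The 10 chaperones had 447 and 466 labelled counts with A-485 and 466 and 466 with JQ1, against 403 and 409 in DMSO, and 20815 and 20815 in total RNA with A-485 and 19974 and 20661 with JQ1, against 20276 and 21905 in DMSO. These sums follow their most counted genes and were not tested.

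A list of 43 other genes of the 2 responses gave a comparison. With actinomycin D 30 of 30 tested were lower in labelled RNA and with AZ-5576 29 of 30, and in total RNA 7 and 3 of 41 were lower. Over all genes tested 99.2 and 94.7% were lower in labelled RNA and 19.7 and 12.9% in total RNA. With JQ1 7 of 30 (23.3%) were lower in labelled RNA and 4 of 41 (9.76%) in total RNA, near the 28.6 and 7.35% of all genes. With A-485 2 were lower in each (6.67 and 4.88%), where 4.86 and 1.2% of all genes were lower. The differences in these shares were not tested. In these 8 comparisons with DMSO 0 were higher (0 at an unadjusted p under 0.05 and 0 with DESeq2). Between A-485 and JQ1, 1 was lower and 5 higher in labelled RNA, where 3.14% of all genes were lower and 24.8% higher. In total RNA 1 was lower and 1 higher, where 1.2% of all genes were lower and 5.38% higher. Between AZ-5576 and actinomycin D 0 passed in total RNA (0 with DESeq2), where 0.371% of all genes were lower and 2% higher. At an unadjusted p under 0.05, 2 were lower and 2 higher. TMM scaling gave 5 lower and 1 higher in labelled RNA with either of actinomycin D and AZ-5576, 2 lower and 2 higher with JQ1 and 5 lower and 3 higher for A-485 over JQ1, and 3 lower and 2 higher in total RNA with each of actinomycin D and AZ-5576. In the order named, 8.89, 26.1, 4.91 and 7.45% of all genes were lower in labelled RNA on that scale and 0.425, 6.07, 6.03 and 6.34% higher. In total RNA 7.91 and 8.3% were lower and 5.43 and 3.75% higher. PPP1R15A (GADD34), the stress-induced partner of the eIF2 phosphatase, had 10.7 and 20.2 spike-scaled labelled counts with A-485 and 68.1 and 73.7 in DMSO (log2 fold change -2.20, SE 0.33, adjusted p = 4.04e-09). Its total counts were 84.3 and 114 with A-485 and 234 and 287 in DMSO (log2 fold change -1.39, SE 0.17, adjusted p = 5.01e-07). The A-485 libraries lay below both DMSO libraries in each readout, and in labelled RNA the call was lost with DESeq2 alone (adjusted p 1.57e-09 to 0.142 over the alternatives).

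SLC38A2, an amino acid transporter regulated by ATF4, had 60.1 and 97.5 spike-scaled labelled counts with JQ1 and 60.9 and 46.4 with A-485, against 147 and 125 in DMSO (log2 fold change -0.79, SE 0.24, adjusted p = 0.00546 with JQ1; log2 fold change -1.34, SE 0.24, adjusted p = 3.72e-06 with A-485). It was lower in total RNA with all 4 drugs, at -1.03 with A-485, -0.77 with JQ1, -1.58 with AZ-5576 and -1.28 with actinomycin D. In labelled RNA with JQ1 its call was lost without JQ1 replicate 1 (-0.48), without DMSO replicate 1 (-0.67) and on the TMM scale, where it turned to 0.08, with adjusted p 0.00232 to 0.897. SLC7A1, a transporter of cationic amino acids, had 4 and 8 labelled counts with JQ1 and 41 and 34 in DMSO (log2 fold change -2.83, SE 0.61, adjusted p = 6.44e-05), and 29 and 50 with A-485, 2.82 above JQ1 (SE 0.61, adjusted p = 7.11e-05). Between A-485 and JQ1, PPP1R15A was lower with A-485 by 1.99 (SE 0.33) in labelled and 1.57 (SE 0.17) in total RNA on the log2 scale, and the labelled call was lost with DESeq2 (-1.99).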

How the data were processed

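SLAM-seq counts of 10 libraries were used, 2 for each of 5 groups. The tables hold deposited counts per gene of labelled (T-to-C), total and Drosophila spike-in reads, per the file headers. Libraries were QuantSeq 3′ mRNA libraries and S2 RNA was added at 5% to purified RNA, per the labels' protocols. Per the submitters' processing notes, bcl2fastq 2.17.1.14, Trim Galore 0.6.5, bedtools and the builds hg38 and dm6 were used; the sources used here name no aligner, no conversion caller and no use of strand. Rows numbered 59204 for human genes and 17509 for the spike-in, and gene positions come from GENCODE release 29.

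A gene was tested where 2 or more libraries had 10 or more counts, with edgeR 4.0.16 in R 4.3.3 (robust quasi-likelihood test, two-sided, all 10 libraries in 1 fit, 5 residual degrees of freedom, limma 3.58.1 as a dependency). The spike-in total was the library size, calls are at a Benjamini-Hochberg adjusted p under 0.05 over all genes tested, and fitted biological variation was 24.8% for labelled and 10.9% for total counts. Each SE was derived from the test, as the absolute log2 fold change divided by the square root of the F statistic. Nothing says that libraries came from separate cultures, so p-values measure only the spread between these libraries, which may be technical. Fits were tested on simulated data. A group at 0 counts was set to 3 counts over the group. Ratios of 1 to 3 counts have exact 95% intervals and labelled shares have Wilson 95% intervals, which cover counting error only. Alternatives were TMM scaling, DESeq2 1.42.0, no count filter, a minimum of 30 counts, a replicate block, only the 2 groups compared, and leaving out each replicate. The members and lists were chosen with earlier results of these data known. Values of every library are printed for called members averaging at least 20 counts in the higher group, up to 10 a comparison by size of change, and for ATF4, DDIT4, XBP1 and HSPA5; of the 43 other genes, called ones with the highest counts are named, up to 4 a comparison.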

Additional observations from a re-analysis of the deposited data

How the results depend on the processing

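Over the named genes' fitted changes, 3251 alternative values stayed on the same side of the threshold, 160 lost the call, 59 gained it and 5 changed sign with a call in at least one of the fits. Of the 3251, 202 were not called in either fit and changed sign, 65 of them on the TMM scale. TMM scaling moved the median gene in labelled RNA by 1.07 with actinomycin D and 2.89 with AZ-5576, by 0.86 with JQ1 and 0.23 with A-485, and by -0.63 for A-485 over JQ1. In total RNA it moved by 0.25, 0.15, 0.20, 0.05 and -0.15 in the same comparisons and by -0.10 for AZ-5576 over actinomycin D. The 5 sign changes with a call were all on this scale: labelled RNA with AZ-5576 for ATF6 (2.14), HSPA5 (0.035) and HSP90B1 (0.64), A-485 over JQ1 in labelled RNA for SLC3A2 (-0.59), and total RNA with actinomycin D for CALR (0.22).

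Members called lower on the TMM scale in labelled RNA numbered 5 with actinomycin D (30 on the spike-in scale), 9 with AZ-5576 (30), 0 with JQ1 (5), 1 with A-485 (2) and 12 for A-485 under JQ1 (5). On that scale 8.89, 26.1, 4.91, 3.58 and 7.45% of all genes tested were lower in the same comparisons. Members called higher on it were 1 with AZ-5576 (0), 10 with JQ1 (2) and 2 for A-485 over JQ1 (4). In total RNA 8 were lower and 3 higher with actinomycin D (14 and 0), 0 lower and 4 higher with JQ1 (3 and 1), and 8 lower for A-485 under JQ1 (3). A minimum of 30 counts left 19 lower in labelled RNA with each of actinomycin D and AZ-5576, as fewer genes were tested. With no count filter 1 was higher with JQ1, 1 lower with A-485 and 2 lower for A-485 under JQ1, and DESeq2 called 3 lower for A-485 under JQ1. With only the 2 groups compared, 2 were higher in total RNA with JQ1 and 1 lower for AZ-5576 under actinomycin D. The cause was not tested.

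Correlations of same-numbered libraries' deviations between groups, over 9294 genes, were above 0.1 in 6 of 10 pairs of groups (0.169 to 0.271) and not in the other 4 (-0.0754 to 0.0868), so the numbers were not taken as pairs. The replicate block raised the genes called lower in total RNA to 3648 for actinomycin D (2874 without it), 2253 for AZ-5576 (1878), 1972 for JQ1 (1071) and 253 for A-485 (175). Members called lower in total RNA with the block were 19 with actinomycin D (14 without it), 15 with AZ-5576 (14), 5 with JQ1 (3), 3 with A-485 (2) and 5 for A-485 under JQ1 (3). Members called higher were 3 with JQ1 (1) and 4 for A-485 over JQ1 (1). The added calls held HSPA5 with actinomycin D (-0.26, adjusted p = 0.00374) and AZ-5576 (-0.23, 0.0138), ATF3 (1.04, 0.0387) with JQ1, SESN2 with JQ1 (0.38, 0.0282) and A-485 (-0.51, 0.0151), and DDIT4 (-0.81, 0.0419) and XBP1 (0.39, 0.0302) for A-485 over JQ1. In labelled RNA the block gave 4 lower with JQ1, 1 with A-485 and 4 for A-485 under JQ1, without CEBPG (-1.47, adjusted p = 0.0625), CEBPB (-1.39, 0.0648) and MANF (-1.51, 0.0668).

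Without 1 replicate at a time, labelled RNA gave 2 to 5 lower and 0 to 2 higher with JQ1, 0 to 1 lower with A-485, and 1 to 2 lower and 2 to 4 higher for A-485 against JQ1. Total RNA gave 8 to 17 lower with actinomycin D, 11 to 14 with AZ-5576, 1 to 3 lower and 0 to 1 higher with JQ1, 0 to 2 lower with A-485, 1 to 3 lower and 1 to 2 higher for A-485 against JQ1, and 0 to 1 lower for AZ-5576 under actinomycin D. The 0 counts fell without DMSO replicate 1 or 2 for JQ1 higher in labelled RNA, without A-485 replicate 1 or DMSO replicate 2 for A-485 in labelled RNA, without A-485 replicate 2 or DMSO replicate 2 for A-485 in total RNA, without DMSO replicate 1 for JQ1 higher in total RNA, and without actinomycin D replicate 2 or AZ-5576 replicate 1 for AZ-5576 under actinomycin D. The 8 with actinomycin D was without DMSO replicate 2. The lone library of a group is then assumed to vary like the other groups. Labelled counts limit what can be seen with actinomycin D and AZ-5576, where many members were at 0.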
